A study of Mus musculus with 18 samples.

Results

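The response to 16-alpha-hydroxyestrone (16aOHE) was described across the 11861 genes, of 15288 listed, that averaged at least 1 CPM (reads of a gene scaled to the size of its library) over 6 libraries of mouse cells transfected with a scrambled siRNA. Of these libraries, 3 came from cells given 1 uM 16aOHE for 24 hours and 3 from cells given vehicle for the same time, both in 5% serum and both from 24 hours after transfection onwards. Also used were 3 libraries of scrambled siRNA cells given 1 uM 17-beta-estradiol (E2), and siCYP1B1 cells given 1 uM 16aOHE (3 libraries) or vehicle (3 libraries), where the siRNA targets Cyp1b1. All 18 libraries of the series, which include siCYP1B1 cells with E2, shared 1 estimate of the spread. The samples are labelled pulmonary microvascular endothelial cells grown in an endothelial medium, whereas the title of the series names smooth muscle cells of the pulmonary vessels. Neither strain, sex nor passage is given, and it is not stated that libraries of 1 group stem from different cultures, so p-values measure the spread between these libraries, which may be technical.

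16aOHE is a metabolite of estrone that carries an added hydroxyl group beside the ketone of the steroid's D ring, and E2 has a hydroxyl group in place of that ketone and no other on that ring. Estrogens act through the nuclear receptors encoded by Esr1 and Esr2, which change transcription, and through the membrane receptor encoded by Gper1. Cyp1b1, the gene targeted by siRNA in the study, encodes a cytochrome P450 that hydroxylates estrogens and is itself a target of the aryl hydrocarbon receptor. Estrogen metabolites formed by such enzymes have been studied in the lung circulation because pulmonary arterial hypertension is more frequent in women.

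The 6 libraries were sequenced to a depth at which 1 CPM stood for 20.9 to 38.5 reads, judged from the CPM value of a single read. The pairwise correlations of log2 values were 0.9965 to 0.9977 within a group and 0.9951 to 0.9967 between the 16aOHE and vehicle groups. Of the endothelial markers, Pecam1 and Vwf were at or near 0, whereas Cd34 and Flt1 were expressed. Those in the table summed to 247 to 253 CPM with 16aOHE and 276 to 313 CPM with vehicle, mostly from these last genes. Pecam1 had 0.104, 0.0781 and 0.0429 CPM with 16aOHE and at most 0.144 CPM with vehicle, Vwf stayed at or under 0.214 CPM in all 6 libraries, and 7 of the 25 endothelial markers reached the level for testing. Markers of mesothelium, the lining of the lung surface, were abundant, with Msln at 1660 ± 124 CPM with 16aOHE and 1645 ± 12.3 CPM with vehicle (SD, n = 3 each), and Wt1 at 311 ± 2.87 and 296 ± 5.95 CPM with 16aOHE and with vehicle. Of the 13 smooth muscle markers 7 were tested, and those in the table summed to 1228 to 1252 CPM with 16aOHE and 1246 to 1268 CPM with vehicle, mostly from Cald1 (979 and 970.1 CPM on average with 16aOHE and with vehicle), a gene that many cell types use. Myh11, the smooth muscle myosin, was at or under 0.13 CPM in these libraries. Fibroblast and pericyte markers were abundant too, summing to 5865 to 6249 CPM with 16aOHE and 6636 to 6995 CPM with vehicle. The mesothelial markers summed to 6048 to 6259 CPM with 16aOHE and 6507 to 6593 CPM with vehicle. Pecam1, Vwf and the mesothelial and fibroblast markers go against the endothelial label, whereas Cd34 and Flt1 do not. The cells are called by their siRNA and treatment below. In such bulk RNA, fewer cells of a type and less RNA per cell cannot be told apart. Cyp1b1, the siRNA target, had 80.8, 82.2 and 81.3 CPM in siCYP1B1 cells with vehicle, against 89.1, 91.4 and 96.1 CPM in scrambled siRNA cells with vehicle, so its transcript was lower in each siCYP1B1 library but still abundant.

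16aOHE moved many genes by small amounts. At a Benjamini-Hochberg adjusted p of 0.05 in a limma fit on log2(CPM + 1), 454 genes (3.83% of those tested) were called, 208 of them higher with 16aOHE (1.75%) and 246 lower (2.07%), and 1779 genes had an unadjusted p under 0.05. The median size of the called changes was 0.25 on the log2 scale, 70 called genes changed by at least 0.5, and 6 changed at least 2-fold, of which 5 rose. On this scale the added 1 CPM understates the change of genes of a few CPM. With 0.1 CPM added instead, 11 called genes changed at least 2-fold. The groups did not overlap for 2512 of the tested genes (21.2%). The number called depended on single libraries: it was 247 without 16aOHE library 1, 285 without 16aOHE library 3, 284 without vehicle library 1 and 285 without vehicle library 2, and 167 of the 454 genes were called in all 6 fits that left out 1 library. The balance of directions moved with the setting, with 129 higher and 118 lower without 16aOHE library 1, 147 higher and 118 lower without the lowest-titled library of each group, and 176 higher and 264 lower after median-of-ratios scaling.

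**Figure D1:**
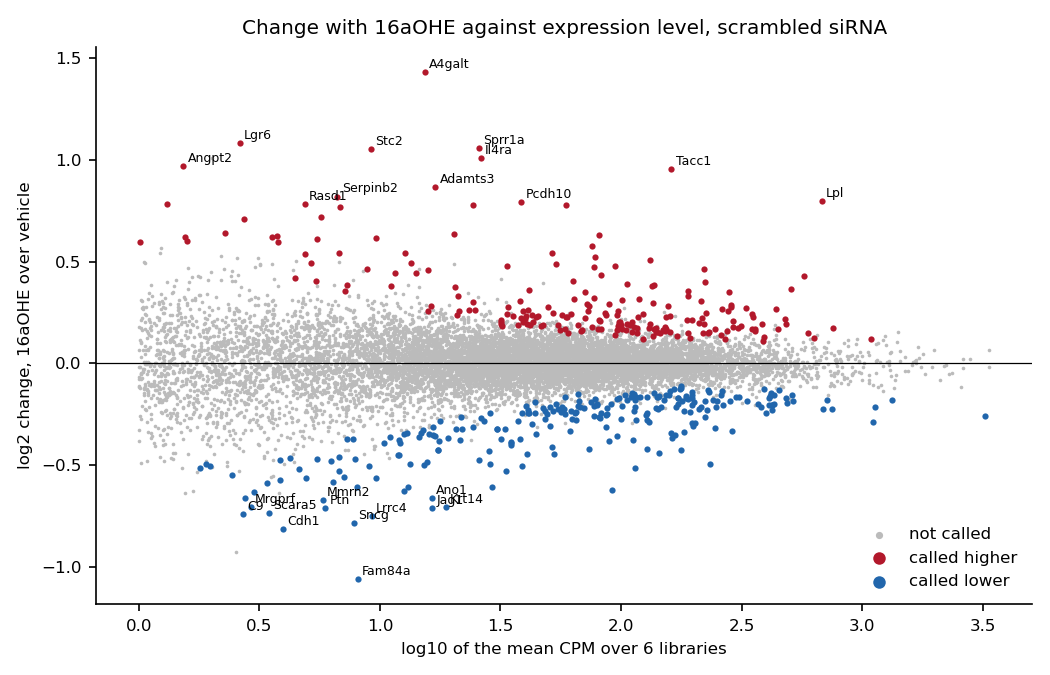
Log2 change with 16aOHE over vehicle in scrambled siRNA cells (y) against the log10 of the mean CPM over the 6 libraries (x), 1 point per tested gene. Red points are the 208 genes called higher, blue points the 246 called lower, grey points were not called, and the 12 genes with the largest called, non-overlapping change in each direction are named. A4galt stands highest at 1.43 and Fam84a lowest among called genes at -1.06.

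The estrogen receptor genes themselves were low. Esr1 had 15.9, 15.8 and 15.6 CPM with 16aOHE, 14.7, 19.7 and 17.3 CPM with E2, and 13.7, 16.7 and 13.4 CPM with vehicle. The ranges overlapped and no change was called (log2 change 0.11, 95% interval -0.09 to 0.31, adjusted p = 0.673). Esr2 had at most 0.26 CPM and Gper1 at most 0.048 CPM in the 16aOHE and vehicle libraries, below the level for testing. Nrip1, which encodes a corepressor and coactivator of nuclear receptors and is induced by estrogen in human breast cancer cells, rose. It had 22.2, 22.8 and 24.6 CPM with 16aOHE, against 16.3, 18.3 and 18.4 CPM with vehicle (log2 change 0.38 ± 0.08, SE; adjusted p = 0.00793), and was the only called gene among 12 tested estrogen-related receptors and coregulators. Its call was lost without 16aOHE library 3 or vehicle library 1 (adjusted p up to 0.0561).

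Of 22 tested genes from a list of known estrogen receptor targets, 2 rose, 1 fell and 19 were not called, with a median log2 change of 0.04 (0.00 over all genes tested). The shares of all tested genes called higher and lower were 1.75% and 2.07%. Stc2, a secreted glycoprotein of the stanniocalcin family, had 11.5, 14.8 and 11.97 CPM with 16aOHE, against 5.75, 5.71 and 5.35 CPM with vehicle (log2 change 1.05 ± 0.10, SE; adjusted p = 4.24e-07). Car12, a membrane carbonic anhydrase, had 66.4, 59.3 and 66.1 CPM with 16aOHE, against 50.7, 59.4 and 53.1 CPM with vehicle, so 1 library of each group overlapped (log2 change 0.23; adjusted p = 0.0143). Igfbp4, a binding protein of the insulin-like growth factors, was called lower at a log2 change of -0.13 (adjusted p = 0.0451). The calls of Car12 without 16aOHE library 1 or 3 or vehicle library 1 or 3, and of Igfbp4 without any 1 library, were lost (adjusted p up to 0.103 for Car12 and 0.189 for Igfbp4).

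Cyp1b1 rose with 16aOHE. Its level was 106, 108 and 105 CPM with 16aOHE, against 89.1, 91.4 and 96.1 CPM with vehicle, and the groups did not overlap (log2 change 0.20 ± 0.03, SE; adjusted p = 0.00103). It was the only gene called among 11 tested enzymes of estrogen metabolism. Ahr, the gene of the aryl hydrocarbon receptor, was not called (32.4 ± 3.44 CPM with 16aOHE and 30.7 ± 2.15 CPM with vehicle; SD, n = 3 each). Among 9 tested genes of that receptor and its targets, Cyp1b1 rose and Aldh3a1, an aldehyde dehydrogenase, fell by 0.48 on the log2 scale (adjusted p = 0.0274), a call lost without 16aOHE library 1 or 3 or vehicle library 1 or 2 (adjusted p up to 0.165). Cyp1a1, the best known target of this receptor, stayed at or under 0.0521 CPM in the 6 libraries.

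The largest increase was that of A4galt, the galactosyltransferase that completes the glycolipid globotriaosylceramide. A4galt had 22.2, 25.2 and 21.2 CPM with 16aOHE, against 8.34, 7.53 and 7.64 CPM with vehicle, and the groups lay far apart (log2 change 1.43 ± 0.08, SE; adjusted p = 8.34e-11). It was the only called gene of 9 tested genes of glycosphingolipid synthesis. Sprr1a, a small proline-rich protein of the cornified envelope, had 35.7, 36.1 and 33.7 CPM with 16aOHE, against 16.0, 18.0001 and 15.3 CPM with vehicle (log2 change 1.06; adjusted p = 7.84e-08). Serpinb2, a plasminogen activator inhibitor, had 8.95, 8.86 and 8.51 CPM with 16aOHE, against 4.36, 5.19 and 4.11 CPM with vehicle (log2 change 0.82; adjusted p = 0.000317). The matrix metalloproteinase genes Mmp3 and Mmp10, which lie on chromosome 9 with 46367 bases between them, rose as well and are described with the matrix genes.

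The promoter windows of these 5 genes are shown because each holds the AP-1 element, the site bound by Jun and Fos family proteins. Whether the element has a part in their changes was not tested. The letters searched were TGANTCA, a pattern that reads the same on both strands and was counted once, and the windows run from 250 bases before to 50 bases after the start of the gene (RefSeq, build GRCm38.p6, 5′ to 3′ on the gene's strand). The capitals mark the element.
A4galt, chr15:83251680-83251979, minus strand: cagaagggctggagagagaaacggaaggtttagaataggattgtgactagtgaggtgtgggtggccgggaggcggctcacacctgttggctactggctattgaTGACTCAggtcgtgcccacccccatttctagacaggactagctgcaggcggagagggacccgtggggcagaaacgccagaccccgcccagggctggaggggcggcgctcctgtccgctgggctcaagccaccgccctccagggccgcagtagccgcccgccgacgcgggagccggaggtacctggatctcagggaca
Mmp10, chr9:7502092-7502391, plus strand: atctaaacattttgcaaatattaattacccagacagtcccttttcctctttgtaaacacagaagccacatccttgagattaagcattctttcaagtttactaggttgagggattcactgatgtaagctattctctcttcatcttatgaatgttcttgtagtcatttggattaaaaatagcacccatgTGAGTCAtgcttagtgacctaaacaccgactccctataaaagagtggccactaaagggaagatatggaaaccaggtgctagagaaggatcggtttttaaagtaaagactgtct
Mmp3, chr9:7445572-7445871, plus strand: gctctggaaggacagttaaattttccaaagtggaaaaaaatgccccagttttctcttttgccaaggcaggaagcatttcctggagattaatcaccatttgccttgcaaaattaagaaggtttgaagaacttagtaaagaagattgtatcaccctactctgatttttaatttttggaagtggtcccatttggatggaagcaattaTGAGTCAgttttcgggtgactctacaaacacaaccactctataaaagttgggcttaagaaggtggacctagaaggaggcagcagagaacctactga
Serpinb2, chr1:107511173-107511472, plus strand: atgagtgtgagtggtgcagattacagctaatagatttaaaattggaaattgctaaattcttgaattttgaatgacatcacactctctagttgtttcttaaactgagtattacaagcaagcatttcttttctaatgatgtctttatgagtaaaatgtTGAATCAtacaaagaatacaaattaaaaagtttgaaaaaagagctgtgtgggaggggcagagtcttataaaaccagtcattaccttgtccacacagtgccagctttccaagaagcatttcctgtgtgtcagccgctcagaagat
Sprr1a, chr3:92485832-92486131, minus strand: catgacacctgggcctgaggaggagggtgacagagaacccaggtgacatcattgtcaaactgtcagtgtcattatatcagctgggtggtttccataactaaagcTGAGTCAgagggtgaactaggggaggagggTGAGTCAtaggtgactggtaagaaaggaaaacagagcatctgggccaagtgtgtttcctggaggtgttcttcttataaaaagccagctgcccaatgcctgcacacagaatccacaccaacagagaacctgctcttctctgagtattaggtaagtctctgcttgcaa
Counted in bases from the start of the gene, the element begins at position -147 in A4galt, -63 in Mmp10, -46 in Mmp3 and -94 in Serpinb2, and Sprr1a holds it at -146 and at -116. Among the 9509 tested genes with a window (80.2%), 439 (4.62%) hold it. These genes were picked for the element after their changes were known, and a match is a description of the letters only. Windows were at hand for 8 of the 12 largest increases, of which 3 hold the element and 5 do not, and for 8 of the 12 largest decreases, of which none holds it, too few of each 12 to compare shares. Of the other motifs searched, the NF-kB site was found in Il4ra among the increases and in Krt14 and Ano1 among the decreases (5.17% of all windows), while the CArG box (1.25%) and the sterol regulatory element TCACNCCAC (1.01%), both searched on both strands like the NF-kB site, were found in none of these. No window of a tested gene held the full palindromic estrogen response element GGTCANNNTGACC.

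Other large increases were found in receptors, secreted factors and enzymes. Il4ra, the alpha chain of the interleukin-4 and interleukin-13 receptors, had 34.4, 36.4 and 35.0 CPM with 16aOHE, against 16.5, 17.9 and 16.6 CPM with vehicle (log2 change 1.01 ± 0.07, SE; adjusted p = 1.13e-08). Lgr6, a receptor for R-spondins and the only gene called among 19 tested Wnt pathway genes, had 4.48, 3.43 and 3.68 CPM with 16aOHE, against 0.623, 2.29 and 1.23 CPM with vehicle (log2 change 1.08; adjusted p = 0.00109). Angpt2, the ligand that antagonises angiopoietin 1 at the Tie2 receptor, had 2.46, 1.85 and 2.74 CPM with 16aOHE, against 0.527, 0.606 and 1.01 CPM with vehicle (log2 change 0.97; adjusted p = 0.0169). All 3 genes were higher in every 16aOHE library than in any vehicle library. The call of Angpt2 was lost without 16aOHE library 1 or 3 or vehicle library 1 or 2 (adjusted p up to 0.0861).

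Lpl, the lipoprotein lipase that releases fatty acids from triglycerides, was the most abundant of the 12 largest increases. It had 878, 878 and 843 CPM with 16aOHE, against 499, 513 and 482 CPM with vehicle (log2 change 0.80 ± 0.04, SE; adjusted p = 1.05e-11), and this was the smallest adjusted p of all tested genes. Tacc1, a centrosomal and microtubule-associated coiled-coil protein, had 218, 222 and 202 CPM with 16aOHE, against 106, 109.6 and 114 CPM with vehicle (log2 change 0.96; adjusted p = 9.05e-11). Adamts3, a protease that trims procollagens and processes Vegfc, rose by 0.87, the adhesion protein gene Pcdh10 by 0.79 and Rasd1, a small Ras-like G protein, by 0.78 on the log2 scale (adjusted p from 4.85e-08 for Pcdh10 and 4.27e-06 for Adamts3 to 0.00482 for Rasd1). In these 3 genes too, the libraries of the groups did not overlap.

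**Figure D2:**
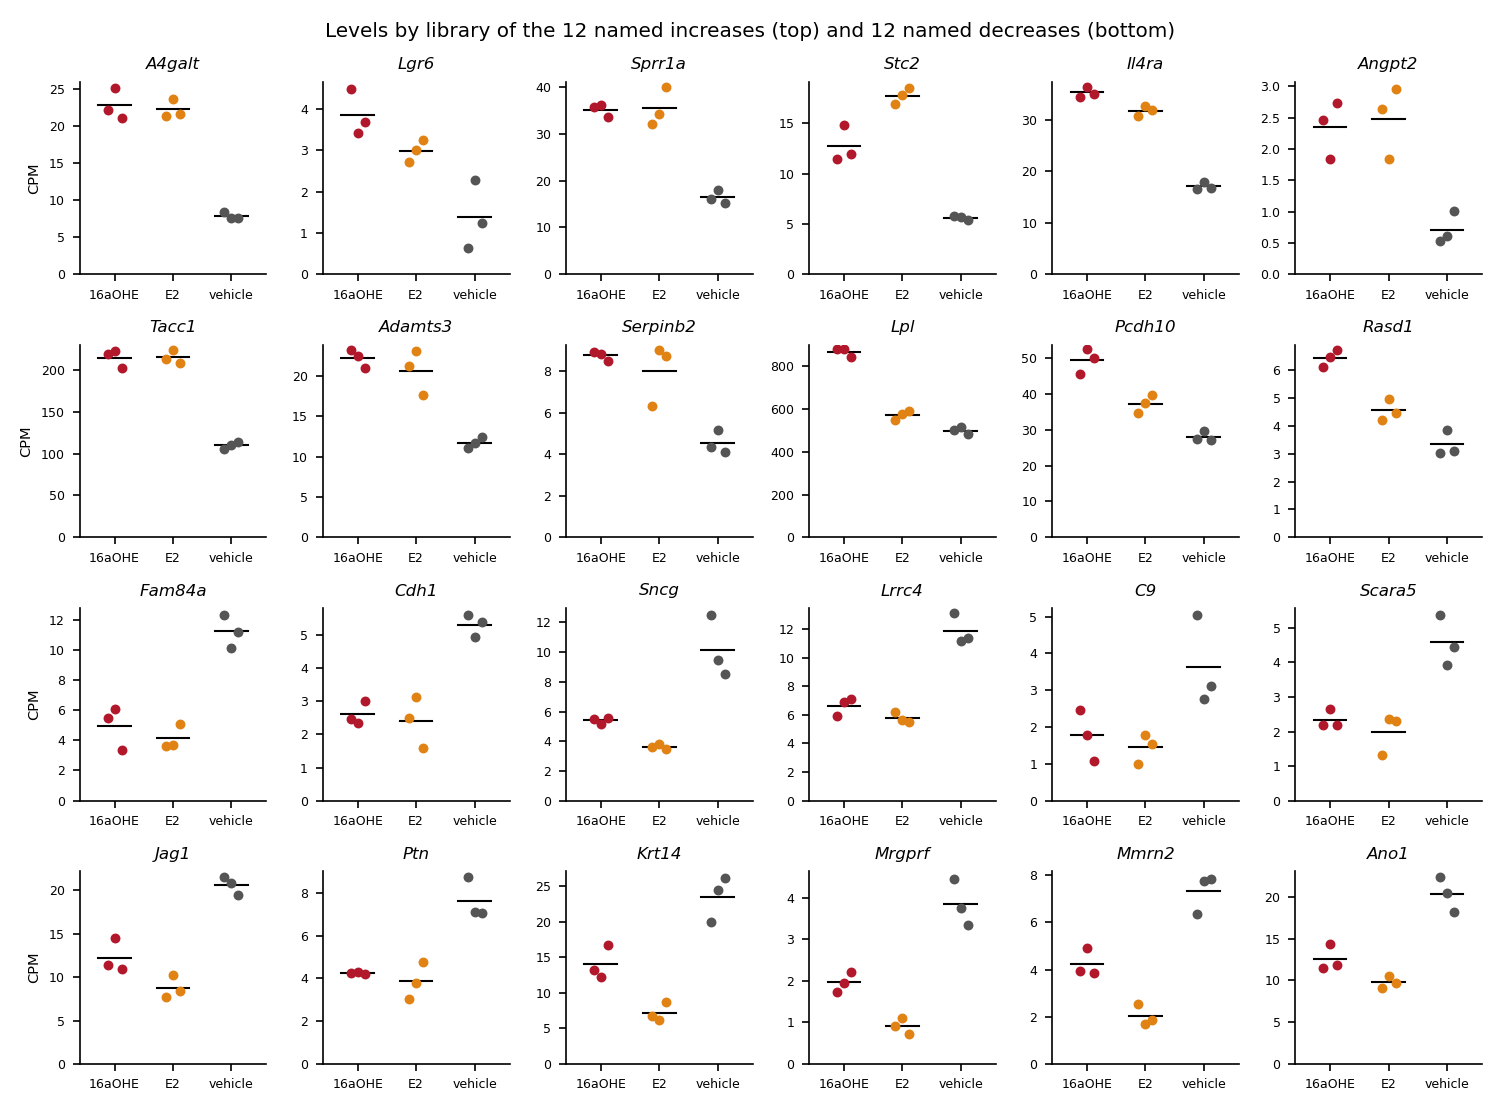
CPM (y, from 0) of each library of scrambled siRNA cells with 16aOHE (red), E2 (orange) or vehicle (grey) for the 12 largest increases (upper 2 rows) and 12 largest decreases (lower 2 rows) with 16aOHE; bars are means of 3 libraries. In each panel the 3 red points lie entirely above or entirely below the 3 grey points, as the choice of these genes requires.

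The decreases were led by Fam84a, which had 5.45, 6.11 and 3.38 CPM with 16aOHE, against 12.3, 10.1 and 11.2 CPM with vehicle (log2 change -1.06 ± 0.17, SE; adjusted p = 0.000443). It was the only called gene to fall at least 2-fold on the log2(CPM + 1) scale. With 0.1 CPM added in place of 1 CPM, 2 called genes fell at least 2-fold, and with 5 CPM added 0 did. Sncg, gamma-synuclein, had 5.52, 5.17 and 5.56 CPM with 16aOHE, against 12.5, 9.48 and 8.50 CPM with vehicle (log2 change -0.78; adjusted p = 0.000297). Ano1, a calcium-activated chloride channel, had 11.5, 14.3 and 11.8 CPM with 16aOHE, against 22.4, 20.5 and 18.2 CPM with vehicle (log2 change -0.66; adjusted p = 0.000174). Ptn, a heparin-binding growth factor, and the adhesion protein Lrrc4 fell by 0.71 and 0.75, Scara5, a scavenger receptor for ferritin, fell by 0.74, and the orphan receptor Mrgprf fell by 0.71 on the log2 scale (adjusted p between 0.000127 for Lrrc4 and 0.00465 for Scara5). C9, the terminal complement component, was called lower at 2.46, 1.79 and 1.07 CPM with 16aOHE, against 5.03, 2.77 and 3.11 CPM with vehicle (adjusted p = 0.0451), but the call was lost without 16aOHE library 2 or 3 or vehicle library 1 or 3 (adjusted p up to 0.255), and at a pseudocount of 0.1 CPM. None of the 12 tested genes of the complement list, which does not hold C9, was called.

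Keratins and junction proteins were called in the downward direction only: of 22 tested genes of a list of keratins, cadherins, claudins, desmosomal proteins and their repressors, 6 fell, none rose and 16 were not called, with a median of -0.12. Over all tested genes 2.07% were called lower. Among the 17 list members that averaged at least 5 CPM 3 fell, with a median of -0.05. Without vehicle library 2, 3 of the 22 were called. Cdh1, which encodes E-cadherin, had 2.46, 2.34 and 2.99 CPM with 16aOHE, against 5.61, 4.93 and 5.40 CPM with vehicle (log2 change -0.81 ± 0.15, SE; adjusted p = 0.00274). Krt14 had 13.2, 12.3 and 16.8 CPM with 16aOHE, against 19.99, 24.5 and 26.1 CPM with vehicle (log2 change -0.71; adjusted p = 0.00114), and Dsp, the desmosomal linker desmoplakin, had 149, 169.9 and 166 CPM with 16aOHE, against 191, 217 and 205 CPM with vehicle (log2 change -0.34; adjusted p = 0.00343). In all 3 genes the groups were apart. Krt7, Krt80 and Krt18 were called at log2 changes of -0.66, -0.63 and -0.53 from levels under 9 CPM, while Krt19, the most abundant keratin of the list, was not called (466 ± 26.9 CPM with 16aOHE and 526 ± 19.9 CPM with vehicle; SD, n = 3 each; adjusted p = 0.11). The repressors of Cdh1 on the list, Snai1, Snai2, Zeb1, Zeb2 and Twist1, were not called. The call of Krt18 was lost without any 1 library, that of Krt7 without 16aOHE library 3 or vehicle library 2, and that of Krt80 without 16aOHE library 2 or vehicle library 2 (adjusted p up to 0.149, 0.0966 and 0.0789 for Krt18, Krt7 and Krt80).

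Of the tested markers of cell types some were called and others were not, where 2.07% of all tested genes were called lower. Among 10 tested mesothelial markers, Upk3b, Lrrn4 and Krt18 fell, Bnc1 rose and 6 were not called, Msln and Wt1 among them. The summed level of the 12 in the table was 6048 to 6259 CPM with 16aOHE and 6507 to 6593 CPM with vehicle. Upk3b, a uroplakin, had 979, 1016 and 1014 CPM with 16aOHE, against 1221, 1239.9 and 1210.05 CPM with vehicle (log2 change -0.29; adjusted p = 5e-05). Of the fibroblast and pericyte markers, 4 of 7 tested fell (Col3a1, Dcn, Notch3 and Col1a2), with a sum of 5865 to 6249 CPM with 16aOHE and 6636 to 6995 CPM with vehicle. Acta2, smooth muscle actin, fell by 0.43 (adjusted p = 0.00758) as the only call among 7 tested smooth muscle markers. The Acta2 call was lost without 16aOHE library 2 or vehicle library 3 (adjusted p up to 0.0623). Cdh1 was the only tested lung epithelial marker, and neither of 2 tested leukocyte markers was called. Endothelial markers summed to 247 to 253 CPM with 16aOHE and 276 to 313 CPM with vehicle, mostly from Cd34 and Flt1, and 2 of the 7 tested fell. Of 20 ribosomal protein genes none was called, and nuclear-retained RNAs summed to 402 to 588 CPM with 16aOHE and 419 to 441 CPM with vehicle, highest in 16aOHE library 1. The part that a shift in cell makeup or RNA quality has in the falls of keratins, collagens and vascular genes was not tested.

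Among 21 tested immediate early genes, the transcription factors and signal regulators that answer growth factors within minutes, 5 rose and 1 fell, with a median of 0.04. Over all tested genes 1.75% were called higher and 2.07% lower. Egr1 had 116, 93.6 and 85.3 CPM with 16aOHE, against 81.2, 53.9 and 55.7 CPM with vehicle (log2 change 0.63 ± 0.14, SE; adjusted p = 0.01). Every 16aOHE library was above every vehicle library, but library 1 was the highest of its group in both. Ier3, a regulator of apoptosis, had 51.4, 46.7 and 43.1 CPM with 16aOHE, against 36.8, 37.6 and 34.7 CPM with vehicle (log2 change 0.36; adjusted p = 0.00109). Ier2, Fosl2 and Jun rose by 0.26, 0.21 and 0.16 on the log2 scale, Klf4 fell by 0.18 (adjusted p = 0.00442), and Fos was not called (log2 change 0.08; adjusted p = 0.881). The calls of Egr1 (without 16aOHE library 1 or vehicle library 2 or 3), Ier2 (16aOHE library 2 or 3 or vehicle library 2 or 3), Fosl2 (16aOHE library 1 or vehicle library 2) and Jun (any but vehicle library 1) were lost with adjusted p up to 0.0829, 0.13, 0.0653 and 0.135.

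Genes of the TGF-beta pathway and targets of YAP, the coactivator of the Hippo pathway, were called in the upward direction only. Of 19 tested TGF-beta ligands, receptors and targets 4 rose, and of 13 tested YAP targets 3 rose, with medians of 0.05 and 0.09. The share of all tested genes called higher was 1.75%. The TGF-beta median was -0.01, with 3 genes called higher, without the lowest-titled library of each group. Tgfbr3, the coreceptor betaglycan, had 93.2, 92.5 and 87.2 CPM with 16aOHE, against 62.9, 59.7 and 59.1 CPM with vehicle (log2 change 0.58 ± 0.05, SE; adjusted p = 2.25e-07). Tgfb2, a TGF-beta ligand, had 88.6, 84.3 and 85.2 CPM with 16aOHE, against 71.1, 66.4 and 68.2 CPM with vehicle (log2 change 0.32; adjusted p = 0.000222), and Ltbp1, which holds latent TGF-beta in the matrix, rose by 0.24 (adjusted p = 0.00415). Cyr61, a matricellular protein, had 279.9, 238 and 254 CPM with 16aOHE, against 189.998, 179 and 189 CPM with vehicle (log2 change 0.46 ± 0.06, SE; adjusted p = 4.22e-05). The YAP-binding angiomotin-like genes Amotl1 and Amotl2 rose by 0.22 and 0.15, Amotl2 not without 16aOHE library 1 or 3 or vehicle library 1 or 2 and not after median-of-ratios scaling (adjusted p up to 0.165 without a library). Ctgf, another YAP and TGF-beta target, was not called (165 ± 26.0 CPM with 16aOHE and 148 ± 14.6 CPM with vehicle; SD, n = 3 each). None of 16 tested BMP receptors, SMADs and Id genes was called, Bmpr2, the receptor mutated in heritable pulmonary arterial hypertension, among them (log2 change 0.13, 95% interval -0.05 to 0.30).

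Inflammatory genes were split. Of 17 tested NF-kB targets, subunits and cytokines 4 fell and 1 rose, where 2.07% of all tested genes were called lower and 1.75% higher. The list had a median of -0.17. That median was -0.11 with a pseudocount of 5 CPM and -0.08 with no filter on low values, and the 4 falls became 2 without any 1 of the 16aOHE libraries and 1 without vehicle library 1. Ccl2, a monocyte chemoattractant, had 23.1, 25.4 and 22.1 CPM with 16aOHE, against 38.1, 32.6 and 30.4 CPM with vehicle (log2 change -0.50 ± 0.10, SE; adjusted p = 0.00363). Vcam1, a leukocyte adhesion molecule, and the NF-kB subunits Relb and Nfkb2 fell by 0.23, 0.35 and 0.20. Tnfaip3, the ubiquitin-editing enzyme A20 that restrains NF-kB, was the 1 gene that rose, at 63.3, 57.6 and 63.2 CPM with 16aOHE, against 39.0, 42.5 and 44.2 CPM with vehicle (log2 change 0.54 ± 0.06, SE; adjusted p = 1.5e-05). Leaving out any 1 library ended the call of Relb, 16aOHE library 1 or 3 or vehicle library 1 that of Vcam1, and 16aOHE library 2 or vehicle library 1 that of Nfkb2 (adjusted p up to 0.13, 0.119 and 0.0955). Of 33 tested interferon response genes 1 was called, Bst2, which fell by 0.22 (adjusted p = 0.00632; lost without 16aOHE library 1, adjusted p = 0.0563).

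Genes of the extracellular matrix moved in both directions. Of 32 tested matrix proteins, cross-linking enzymes and proteases 4 rose and 6 fell, where 1.75% of all tested genes were called higher and 2.07% lower. The metalloproteinase Mmp3 had 9.06, 8.08 and 9.54 CPM with 16aOHE, against 4.60, 5.54 and 4.30 CPM with vehicle (log2 change 0.77 ± 0.12, SE; adjusted p = 0.000315), and its neighbour Mmp10 had 2.57, 2.03 and 1.71 CPM with 16aOHE, against 1.20, 1.38 and 0.594 CPM with vehicle (log2 change 0.60; adjusted p = 0.0261). Mmp13, a collagenase, lay at 6.46, 10.3 and 7.53 CPM with 16aOHE, against 6.42, 5.37 and 4.39 CPM with vehicle, and missed the threshold (log2 change 0.50; adjusted p = 0.0575). Ogn, a small leucine-rich proteoglycan, rose by 0.23 (adjusted p = 0.00278). In the other direction, Adamts5, a protease of aggrecan and versican, had 99.1, 96.0 and 98.0 CPM with 16aOHE, against 119.6, 132 and 129.6 CPM with vehicle (log2 change -0.38 ± 0.05, SE; adjusted p = 0.000123). Has1, a hyaluronan synthase, fell by 0.58, the proteoglycan decorin (Dcn) by 0.24, Adamts1 by 0.21, and Loxl3 and Fbln2 each by 0.18.

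Of 20 tested collagen genes 3 fell and 1 rose, where 2.07% of all tested genes were called lower and 1.75% higher. Col3a1, a fibrillar collagen and the most abundant of these 4, had 2874, 2932 and 3000.04 CPM with 16aOHE, against 3548, 3426 and 3555 CPM with vehicle (log2 change -0.26 ± 0.03, SE; adjusted p = 5.73e-05). Col6a2 and Col1a2 fell by 0.31 and 0.20, and Col4a2, a basement membrane chain, rose by 0.17 (adjusted p = 0.0239, 0.0207 and 0.0483 for Col6a2, Col1a2 and Col4a2). Col3a1, Adamts5, Mmp3 and Ogn were called without any 1 library. The others of these 2 lists were not: Mmp10 lost its call without 16aOHE library 1 or 2 or vehicle library 3, Has1 without 16aOHE library 2 or vehicle library 1 or 3, Dcn and Col6a2 without 16aOHE library 1 or 3 or vehicle library 1, Adamts1 without 16aOHE library 1 or vehicle library 2, Fbln2 and Col1a2 without 16aOHE library 1 or 2 or vehicle library 2 or 3, Loxl3 without any but 16aOHE library 2, Col4a2 without any but vehicle library 3, and Plod1, a lysyl hydroxylase that was called higher at 0.19, without any library. The largest adjusted p in these fits was 0.264, for Col4a2, which was also not called after median-of-ratios scaling, so that no collagen was called higher there.

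Signalling genes of the vessel wall were called mostly lower. Jag1, the Notch ligand, had 11.4, 14.5 and 10.9 CPM with 16aOHE, against 21.5, 20.8 and 19.5 CPM with vehicle (log2 change -0.71 ± 0.10, SE; adjusted p = 0.000127). The Notch target Nrarp and the receptor Notch3 were called lower at -0.36 and -0.21, both not without any 1 library (adjusted p up to 0.199 and 0.22), and the Notch target Hes1 was not called (log2 change -0.04). Together 3 of 11 tested Notch genes fell and none rose, where 2.07% of all tested genes were called lower. Of 16 tested VEGF, angiopoietin and endothelin genes 4 fell and Angpt2 alone rose. Flt1, a VEGF receptor, had 76.4, 73.6 and 71.6 CPM with 16aOHE, against 89.3, 88.6 and 88.9 CPM with vehicle (log2 change -0.26 ± 0.05, SE; adjusted p = 0.00452). Angptl2, a secreted angiopoietin-like protein, had 29.7, 31.2 and 29.7 CPM with 16aOHE, against 39.0, 40.5 and 39.8 CPM with vehicle (log2 change -0.39; adjusted p = 8.16e-05). Mmrn2, an endothelial matrix protein that is not on this list, fell by 0.67. Angptl7 and the endothelin-converting enzyme Ece1 were called at -0.42 and -0.16, but lost the call without 16aOHE library 1 or 3 or vehicle library 1 or 2 (Angptl7) and without any but 16aOHE library 3 (Ece1; adjusted p up to 0.258 and 0.147). Edn1, which encodes endothelin 1, was not called against vehicle (6.57 ± 1.18 CPM with 16aOHE and 5.52 ± 0.508 CPM with vehicle; SD, n = 3 each; adjusted p = 0.559).

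Among the metabolic and housekeeping lists, cholesterol synthesis was called in the downward direction only. Of 24 tested genes of cholesterol synthesis and SREBP2 targets 5 fell and none rose, and 23 of the 24 had a negative sign, with a median of -0.12. Over all tested genes 2.07% were called lower and 1.75% higher. Of the 11861 genes tested, 6083 had a positive sign. Msmo1 and Hmgcs1, 2 enzymes of the pathway, fell by 0.21 and 0.20 (adjusted p = 0.0073 and 0.00497), Idi1 and Cyp51 by 0.24 and 0.21, and Insig1 by 0.17. The calls of Idi1 (without 16aOHE library 2 or vehicle library 3), Cyp51 (16aOHE library 1 or 2 or vehicle library 2 or 3) and Insig1 (16aOHE library 2 or 3 or vehicle library 2 or 3) were lost with adjusted p up to 0.0644, 0.0991 and 0.106. G6pdx, the first enzyme of the pentose phosphate pathway, had 256, 254 and 252 CPM with 16aOHE, against 192, 200.3 and 185 CPM with vehicle (log2 change 0.40 ± 0.04, SE; adjusted p = 3.27e-06). Of the 29 tested NRF2 targets G6pdx and Abcc1 rose and Tkt fell, whereas Hmox1 and Nqo1, its best known targets, were not called (log2 changes of 0.05 and -0.02). The glycolytic regulators Pfkfb3 and Hk2 rose by 0.32 and 0.26 (adjusted p = 3.88e-05 and 0.000415), and Egln3 fell, among 27 tested glycolysis and hypoxia genes. The calls of Abcc1 and Tkt were each lost without 16aOHE library 1 or 2 or vehicle library 2, of Abcc1 also without vehicle library 1 and of Tkt without vehicle library 3, and that of Egln3 without any but vehicle library 2 (adjusted p up to 0.164, 0.21 and 0.198).

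None of 25 tested oxidative phosphorylation subunits, 22 tested p53 targets and 24 tested mitochondrial ribosomal proteins was called. Of 27 tested G1/S and DNA replication genes 2 fell and none rose. These were Rrm1, a ribonucleotide reductase subunit, at 659.8, 681 and 671 CPM with 16aOHE, against 768, 747 and 760.3 CPM with vehicle (log2 change -0.18 ± 0.03, SE; adjusted p = 0.00256), and the cyclin gene Ccnd3. The median of that list was -0.09, with a positive sign in 2 of the 27 genes. Of 26 tested G2/M genes 2 (Kif11 and Ube2c) were called lower, and 4 had a positive sign. The share of all tested genes called lower was 2.07%. The calls of Ccnd3 (without 16aOHE library 1 or 2 or vehicle library 2 or 3), Kif11 (any but 16aOHE library 1) and Ube2c (any library) were lost with adjusted p up to 0.107, 0.182 and 0.242. Of 25 tested ATF4 and endoplasmic reticulum stress genes Dnajb9, a chaperone partner, was called higher and Ddit4, an inhibitor of mTORC1, lower, Dnajb9 not without 16aOHE library 2 or vehicle library 3 and Ddit4 not without 16aOHE library 1 or vehicle library 1 (adjusted p up to 0.0534 and 0.114).

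Among growth factor, guidance and rhythm genes, most members of each list were not called. The share of all tested genes called in either direction was 3.83%, and most of these lists had a larger share called. Mest, an imprinted gene of the hydrolase fold, had 94.6, 94.4 and 91.7 CPM with 16aOHE, against 136, 135 and 131 CPM with vehicle (log2 change -0.51 ± 0.06, SE; adjusted p = 1.5e-05), and was the only call among 10 tested imprinted growth genes. Of 20 tested semaphorins and plexins, Sema3e rose by 0.24 and Sema3d and Plxnb3 fell by 0.29 and 0.60 (adjusted p = 0.000263, 0.00316 and 0.0153). Of 13 tested IGF pathway genes and stanniocalcins, Stc2 and Igfbp3 rose and Igfbp6 and Igfbp4 fell, Igfbp3 and Igfbp6 by 0.28 and 0.29. In the clock list of 16 tested genes Nr1d1 was called higher at 0.35 and Cry1 lower at -0.28, and of 16 tested glucocorticoid receptor targets Errfi1 rose and Fkbp5 and Ddit4 fell. Fatty acid metabolism had 2 calls of 25 tested, Lpl and Elovl5, both higher, and of 12 tested Kruppel-like factors Klf4 alone was called. The lysosomal regulator Tfeb (1 of 26 tested in its list), the glycine transporter Slc6a9 (1 of 16 amino acid transporters) and the zinc transporter Slc39a10 (1 of 6 metallothionein and zinc genes) fell by 0.27, 0.32 and 0.20. Mest, Sema3e and Sema3d were called without any 1 library, whereas Nr1d1 lost its call in each of the 6 fits, and Plxnb3, Igfbp3, Igfbp6, Cry1, Errfi1, Fkbp5, Elovl5, Tfeb, Slc6a9 and Slc39a10 lost theirs in at least 1 (adjusted p up to 0.188 for Cry1).

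**Figure D3:**
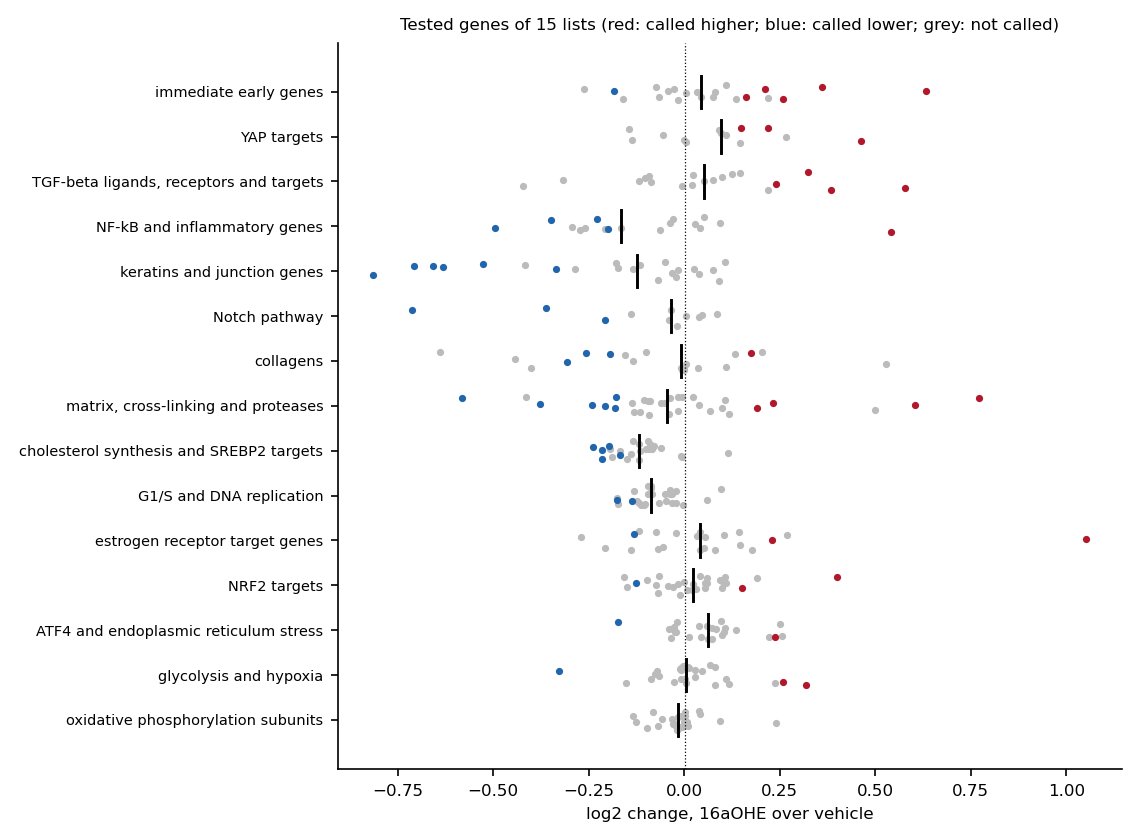
Log2 change with 16aOHE over vehicle (x) of each tested gene of 15 gene lists (rows); red points were called higher, blue points lower and grey points were not called. Black bars are list medians and the dotted line is the median of all tested genes (0.00); keratins, NF-kB genes and cholesterol synthesis have their medians left of it and blue points predominate there.

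The same treatment in siCYP1B1 cells gave a second comparison that shares no library with the first. There, 636 genes (5.36%) were called, 298 higher (2.51%) and 338 lower (2.85%). Signs of RNA quality moved with this comparison: 5 of 20 tested ribosomal protein genes were called lower (median -0.19), and nuclear-retained RNAs had a median change of 0.44 with none called, summing to 488 to 816 CPM in siCYP1B1 cells with 16aOHE and 342 to 469 CPM in siCYP1B1 cells with vehicle. The highest of these sums belonged to siCYP1B1 16aOHE library 2, which was also the lowest of the 18 libraries on the third principal component (-13.0, against -6.59 to 7.61 in the others). Their part in the result was not tested. Of the 454 genes called in scrambled siRNA cells, 446 (98.2%) had the same sign in siCYP1B1 cells, 269 (59.3%) were also called there in the same direction, and 1 was called in the opposite direction. Over all tested genes the signs matched for 65.2%. The changes were smaller in siCYP1B1 cells for 320 of the 454 genes, which were chosen for their size in scrambled siRNA cells. The correlation of the 2 sets of log2 changes across genes was 0.80 over the genes called higher and 0.76 over those called lower, given as a description since genes are not independent replicates. The number called in siCYP1B1 cells fell to 304 without their 16aOHE library 2, 382 without their vehicle library 2, 314 without their vehicle library 3, and to 365 when only the groups compared were fitted.

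The test of the difference itself, the interaction of 16aOHE with the siRNA, called 0 genes (0%) in limma, with 595 genes at an unadjusted p under 0.05 and a smallest adjusted p of 0.0671. With only the 4 groups concerned in the fit it called 12, all with a lower change in siCYP1B1 cells. Psmb5, a catalytic proteasome subunit, had that smallest p. In siCYP1B1 cells it had 16.4, 17.2 and 16.9 CPM with 16aOHE, against 20.8, 20.4 and 20.2 CPM with vehicle. In scrambled siRNA cells it had 18.1, 16.8 and 19.03 CPM with 16aOHE, against 15.2, 14.2 and 14.4 CPM with vehicle. Its log2 change was thus -0.27 in siCYP1B1 cells and 0.28 in scrambled siRNA cells, and the call in scrambled siRNA cells was lost without 16aOHE library 1 or 3 or vehicle library 2 or 3 (adjusted p up to 0.0807). A4galt rose by 0.99 in siCYP1B1 cells and by 1.43 in scrambled siRNA cells (difference -0.44, 95% interval -0.66 to -0.22, adjusted p = 0.398), where siCYP1B1 cells with vehicle already had 11.1, 10.4 and 11.0 CPM. Egr1 had a change of -0.01 in siCYP1B1 cells and 0.63 in scrambled siRNA cells (difference -0.64, 95% interval -1.05 to -0.23, adjusted p = 0.738). Among YAP targets, 7 of 13 rose in siCYP1B1 cells, where 2.51% of all tested genes were called higher. Ctgf was 1 of them (log2 change 0.39, adjusted p = 0.0205), but its difference from scrambled siRNA cells was not called (difference 0.24, adjusted p = 0.985). Lpl, Pcdh10 and Rasd1 rose by 0.69, 0.83 and 0.93 in siCYP1B1 cells, and Scara5 fell by 1.19 there.

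**Figure D4:**
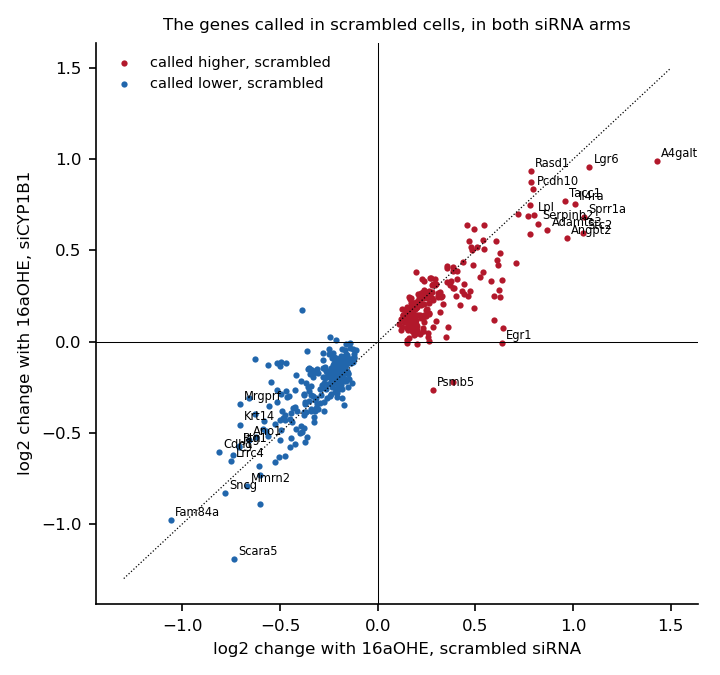
Log2 change with 16aOHE over vehicle in siCYP1B1 cells (y) against that in scrambled siRNA cells (x) for the 454 genes called in scrambled siRNA cells (red higher, blue lower); the dotted line marks equal changes. Of the 454 points 446 lie where both changes have the same sign, and the 2 red points furthest below 0 on the y axis are Psmb5 at -0.27 and Grb14, not labelled, at -0.22.

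16aOHE and E2 were given at the same dose, 1 uM, and for the same 24 hours, and this 1 pair of compounds was compared directly, gene by gene, with p-values adjusted over all tested genes. Here 2181 genes (18.4%) were called, 807 higher and 1374 lower with 16aOHE than with E2, so 37.0% of the calls were higher (6.8% of the tested genes were called higher and 11.6% lower). This split depended on the scaling: 55.6% of the calls were higher after median-of-ratios scaling and 49.6% after quantile normalization. The largest changes from vehicle included genes at which no difference between the compounds was called. A4galt had 21.4, 23.7 and 21.7 CPM with E2 (16aOHE minus E2, log2 difference 0.03, 95% interval -0.13 to 0.19), Tacc1 had 212, 224 and 207 CPM with E2 (0.00, interval -0.11 to 0.10), and Sprr1a had 32.1, 34.1 and 39.9 CPM with E2 (0.00, interval -0.18 to 0.17). For Cdh1 and Fam84a the differences were 0.10 and 0.20, with intervals of -0.22 to 0.42 and -0.14 to 0.55.

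Other genes that rose with 16aOHE were higher with it than with E2. Lpl had 878, 878 and 843 CPM with 16aOHE, against 548, 578 and 587 CPM with E2 (log2 difference 0.60 ± 0.04, SE; adjusted p = 7.09e-10). Cyr61 had 174, 157 and 157 CPM with E2 (difference 0.66; adjusted p = 3.18e-07), Tnfaip3 had 44.9, 38.1 and 41.8 CPM with E2 (difference 0.55; adjusted p = 4.97e-06), and Jun had 121, 125 and 121 CPM with E2 (difference 0.40; adjusted p = 1.44e-06). For these 4 genes no 16aOHE library overlapped an E2 library. Pcdh10 was higher by 0.40 (adjusted p = 0.000132), whereas Stc2 was lower with 16aOHE than with E2, where it had 16.9, 17.8 and 18.5 CPM (difference -0.45; adjusted p = 0.00208). Cyp1b1 too was lower with 16aOHE than with E2, where it had 117, 119 and 117 CPM (difference -0.14; adjusted p = 0.00564).

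The largest excess over E2 was in genes that were lowest with E2. Krt18 had 5.87, 4.63 and 5.69 CPM with 16aOHE, against 1.01, 1.71 and 1.33 CPM with E2, and 8.10, 8.18 and 8.23 CPM with vehicle (16aOHE minus E2, 1.45 ± 0.13, SE; adjusted p = 4.08e-07). Edn1 had 7.77, 5.41 and 6.54 CPM with 16aOHE, against 2.72, 2.08 and 2.48 CPM with E2 (difference 1.14; adjusted p = 1.48e-05). The semaphorin receptor Plxnb3, the ubiquitin ligase Rnf112, Krt14 and Pappa, a protease of IGF-binding proteins, were higher by 1.22, 0.90, 0.88 and 0.86. In the keratin and junction list 7 of 22 tested genes were higher with 16aOHE than with E2 and none lower, and among collagens 8 of 20 were higher and none lower, where 6.8% of all tested genes were called higher. After median-of-ratios scaling these counts were 8 and 9, again with none lower.

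The largest deficits were in genes that were highest with E2 and near the vehicle level with 16aOHE. The metallothionein Mt2 had 12.2, 13.1 and 10.9 CPM with 16aOHE, against 41.7, 48.1 and 46.9 CPM with E2, and 11.1, 10.9 and 10.6 CPM with vehicle (16aOHE minus E2, -1.83 ± 0.08, SE; adjusted p = 2.9e-12). Mt1 had 62.6, 71.0 and 66.0 CPM with 16aOHE, against 168, 170.4 and 191 CPM with E2 (difference -1.39; adjusted p = 6.79e-11). Neither was called against vehicle (log2 change 0.14 for Mt2 and -0.05 for Mt1). The NRF2 targets Hmox1 and Nqo1 were lower with 16aOHE than with E2 by 0.53 and 0.58 (adjusted p = 2.24e-07 and 1.44e-06), and in that list 16 of 29 tested genes were lower and none higher, where 11.6% of all tested genes were called lower (14 lower and none higher after median-of-ratios scaling). Such a deficit was not particular to that list. With the deposited scaling, 22 of 26 tested lysosome and autophagy genes were lower with 16aOHE than with E2 and 0 higher. Of 25 tested ATF4 and endoplasmic reticulum stress genes 15 were lower and 2 higher. Klf15, a transcription factor, Fgfr1, a fibroblast growth factor receptor, and Bnip3 and Ak4, both known from the response to hypoxia, were lower by 0.94, 0.89, 0.77 and 0.76.

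**Figure D5:**
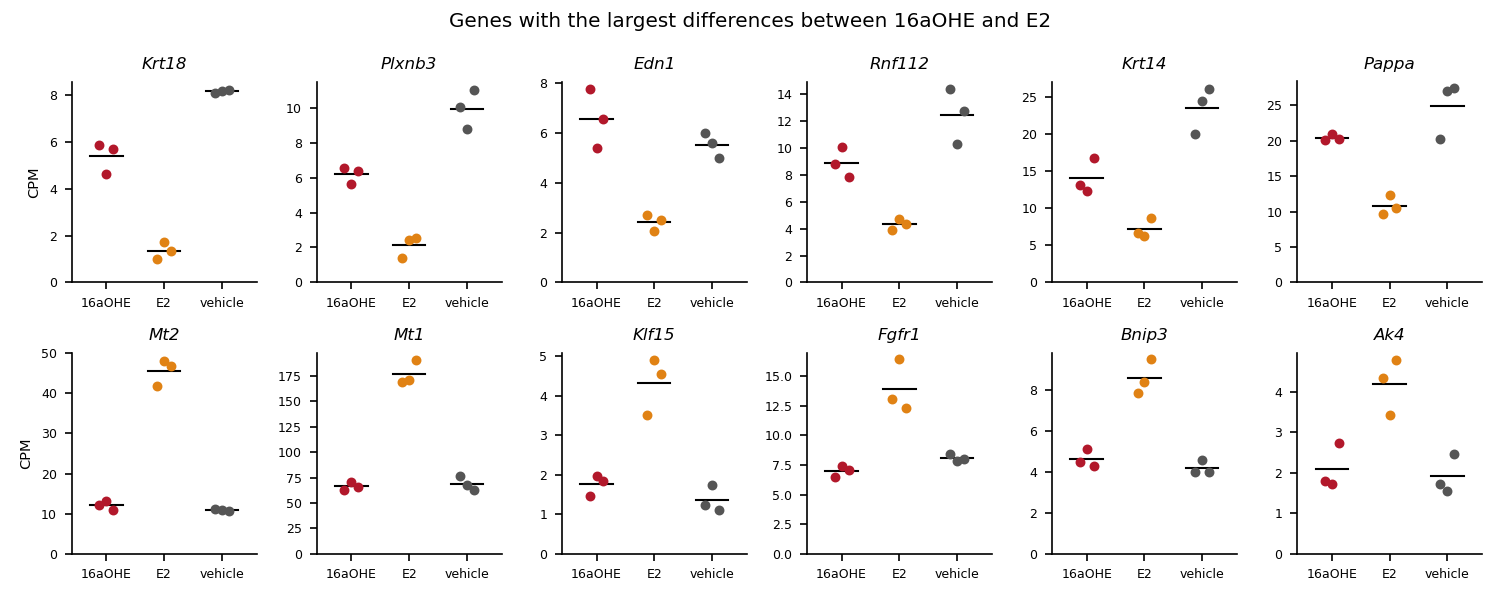
CPM (y, from 0) of each library of scrambled siRNA cells with 16aOHE (red), E2 (orange) or vehicle (grey) for the 6 genes with the largest called excess (upper row) and the 6 with the largest called deficit (lower row) of 16aOHE against E2; bars are means of 3 libraries. In the lower row the red and grey points lie together near 12 and 11 CPM for Mt2, with the orange points above 41 CPM.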

How the data were processed

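The deposited values are CPM, with 1e-04 added to each, for 15288 genes in 18 libraries. Per the submitters' processing notes, TopHat2 and Partek were used with the mm10 build; no version is named in those notes. In each library 93.6% to 94.9% of the values under 3 CPM were whole multiples of 1 read (within 0.1 read), the rest being fractional, so read counts were not rebuilt and depth is an estimate.

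Genes averaging at least 1 CPM over the 6 libraries compared were tested. A limma model (version 3.58.1, R 4.3.3) was fitted to log2(CPM + 1) of all 18 libraries, with 1 coefficient per group and a variance trend, and p-values were adjusted by Benjamini-Hochberg over all 11861 genes; calls use an adjusted p of 0.05. A permutation test of 3 against 3 libraries cannot go below 0.1. Library numbers follow the order of sample titles. The members and gene lists were chosen with earlier results of these data known. Genes named are the 12 largest called, non-overlapping changes in each direction, up to 3 called genes a list and direction with others needed to account for the list, and the 6 largest differences from E2 in each direction; Grb14, Dhrs3, Rarb and the secretory genes were chosen after their values were seen. Reads of genes with near-identical copies, such as ribosomal protein genes, could not be told apart. The counting is not stated to use strand. The closing section gives the alternatives. Single results of a few list members are not reported here.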

Additional observations from a re-analysis of the deposited data

How the results depend on the processing

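The 454 calls of 16aOHE against vehicle became 265 when the library with the lowest title of each group was left out, a setting chosen after seeing the data because these libraries lie to 1 side of their group on the third principal component (9.12% of the variance) in 6 of 6 groups; 221 calls were shared. Leaving out each of the 6 libraries gave 247 to 306 calls, and the pseudocounts, filters, scalings and variance settings 355 to 482. The 636 calls in siCYP1B1 cells became 365 with only the groups compared in the fit and 304 to 752 without 1 library. Without the lowest-titled library of each group they became 852, with 457 calls shared. The interaction count of 0 became 12 with only the groups compared, 1 with no variance trend, 2 with robust variances, 2 without the lowest-titled libraries, and 0 to 1 without 1 library. The 2181 calls against E2 ranged from 1603 to 1805 without 1 library. Of the 24 largest changes 22 were called in every fit that left out 1 library (not Angpt2 and C9), and 20 in all other settings (not these and, without the lowest-titled libraries, Scara5 and Mrgprf). Of 596 results recomputed for the named genes, 97 changed sign in some setting, none of them where either value was called. No paired analysis was possible because the labels carry no replicate numbers that tie libraries of different groups, and the order of titles is no pairing. With 20.9 to 38.5 reads per CPM, genes under 1 CPM, which were not tested, rest on at most that many reads a library.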

Other observations

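A set of secretory-pathway gene families, chosen by name after their values were seen and so without a test, had 12 of 65 tested genes called higher with 16aOHE and none lower (median 0.07), against 9 of 65 higher and none lower in siCYP1B1 cells. Over all tested genes, 1.75% were called higher in scrambled siRNA cells and 2.51% in siCYP1B1 cells. Of 6 tested EDEM and DERL genes, which remove misfolded proteins from the endoplasmic reticulum, 3 were called higher and all 6 had a positive change (median 0.14). Sec61a1, the channel subunit of the translocon, had 505, 514 and 537 CPM with 16aOHE, against 446, 446 and 466 CPM with vehicle (log2 change 0.20; adjusted p = 0.000611). The oxidase gene Ero1l rose by 0.19 and the cargo lectin gene Lman1 by 0.16 (both adjusted p = 0.00274). All 9 tested protein disulfide isomerase and oxidase genes and all 7 tested oligosaccharyltransferase genes had a positive change, with medians of 0.08 and 0.09, of which 2 and 1 were called. Of the coat proteins 0 of 11 COPII and 1 of 8 COPI genes were called, and of the TMED cargo receptors 1 of 9. Only Sec61a1, Lman1 and Ero1l of the 12 kept the call in all 6 fits that left out 1 library. Edem1, Edem2, Tmed10 and Stt3a lost it without any 1 library, Derl1 without 16aOHE library 2, and Spcs2, Cope, Ern1 and Txndc11 in 2 to 4 of the 6 fits. After median-of-ratios scaling Edem1, Edem2, Tmed10 and Stt3a were not called either, nor were Edem2 and Tmed10 after quantile normalization. In siCYP1B1 cells 1 of the 3 Sec61 genes had a positive change, and Ero1l and Derl1 were not called (log2 changes of 0.04 and -0.01).

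A pair of retinoid genes, also noticed after the values were seen, rose. Dhrs3, which reduces retinal to retinol, had 74.6, 72.9 and 78.5 CPM with 16aOHE, against 43.6, 41.8 and 45.0 CPM with vehicle (log2 change 0.78; adjusted p = 7.84e-08), and 83.3, 75.6 and 80.2 CPM with E2. The retinoic acid receptor gene Rarb had 39.2, 41.3 and 37.9 CPM with 16aOHE, against 26.9, 31.3 and 26.2 CPM with vehicle (log2 change 0.48; adjusted p = 6.04e-05). In siCYP1B1 cells both rose as well, by 0.75 and 0.52.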
